A study of Mus musculus with 6 samples.

Results

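The caveolins and cavins are the coat proteins of caveolae, and 6 of their genes were followed here in DR4 mouse embryonic fibroblasts: the caveolins Cav1, Cav2 and Cav3 and the cavins Cavin1, Cavin2 and Cavin3. They were taken as every probe set whose gene symbol in the platform annotation is one of these 6, which gave 11 probe sets out of 45137 and 6 genes out of 18193. Of the 11 probe sets, 10 were on the Affymetrix MOE430A array and 1, for Cavin2, was on MOE430B. A probe set is a group of short oligonucleotides that together read 1 transcript. DR4 fibroblasts came from day 15 embryos, per the labels, and served as the feeder-cell control for embryonic stem cells of the J1, R1 and V6.5 lines, which were not analysed here. As background, DR4 is a multidrug-resistant mouse strain made for feeder layers; the labels give no allele or number of animals. Every culture received D-MEM supplemented with 15% serum and LIF, on dishes coated with 0.1% gelatin, at 37 C under 5% CO2. Total RNA of 3 replicates was hybridized to each array type, which makes 6 samples and a single group per type. The labels separate the replicates only by the RNA preparation: 12x10e6 cells (as the labels write it) and 2.4 ug/ul of RNA for replicate 1, but 3x10e6 cells and 3.0 ug/ul for replicate 2 and for replicate 3. Whether these were separate cultures is not stated. Replicate 1 is a single array per type and is set against the others below. The p-values thus rest on the spread between replicates 2 and 3 alone, in part pooled over probe sets. That spread may be technical.

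Caveolae are small flask-shaped pits of the plasma membrane, rich in cholesterol and abundant in fibroblasts, endothelium, adipocytes and muscle. Caveolin hairpins inserted in the inner leaflet form their scaffold, and a cavin coat assembles on the cytoplasmic face. Caveolae flatten when the membrane is stretched and take part in lipid handling and in signalling. Without Cav1, cells other than muscle lack morphological caveolae, and without Cavin1 caveolae do not form.

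Signals are MAS5 intensities in arbitrary units, and the median signal of each array served as a floor, which was 687, 683 and 732 in replicates 1, 2 and 3 on MOE430A and 846, 913 and 903 on MOE430B. This floor is relative, so about as many probe sets lie under it as above it whatever the cells express. Each array type was scaled by itself and no level was set across the types. Probe sets also differ in how brightly they hybridize, so a brighter probe set does not mean a more abundant transcript. The cells carried the markers of their label: all 15 measured fibroblast markers lay above the floor, among them Vim at 149376 ± 17104 (SD, n = 3), Col1a2 at 145435 ± 24758 and Sparc at 109530 ± 10908. Most markers of other caveola-rich cells were not above it on every array. Above it were 2 of 13 endothelial markers (Kdr and Egfl7, with Nos3 next, under it on all 3 arrays), 2 of 8 adipocyte markers (Lpl and Cebpa, with Fabp4 next, above it in replicates 1 and 3), 5 of 15 skeletal and cardiac muscle markers (the brightest of the list being Acta1, not above it on every array, Actc1 and Des) and 8 of 10 smooth muscle and myofibroblast markers. Of the defining markers, endothelial Pecam1, Cdh5 and Tie1, adipocyte Adipoq and Pparg, and muscle Myog and Myod1 lay under it. Of 11 macrophage, 10 epithelial and 10 stem cell markers, 4, 2 and 2 lay above it. The 3 brightest of these lists were Lyz2, Csf1r and Cd14 in the first, Krt8, Krt18 and Cldn4 in the second, and Fgf4, Utf1 and Esrrb in the third. Of these, Krt18, Cldn4 and Utf1 were not above the floor on every array. Macrophage Fcgr1, epithelial Epcam and stem cell Esrrb were above it only on a probe set other than the one read.

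Most of the coat stood above the floor on every array, and the muscle caveolin on none. Cav1, Cavin1, Cavin2 and Cavin3 each had a probe set above the floor on all 3 arrays, which makes 4 of 6 members, against 54.8% of all genes. With 6 members, no excess over that share is read from this count. Cav2 was above it in replicates 2 and 3 but not in replicate 1, and Cav3 was under it on all 3 arrays, as were 42.4% of MOE430A probe sets. By probe sets, 6 of the 11 lay above the floor on all 3 arrays, against 42.5% of MOE430A and 37.4% of MOE430B probe sets. Without replicate 1, Cav2 joined them and the count was 5 of 6, against 57.8% of all genes.

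**Figure D1:**
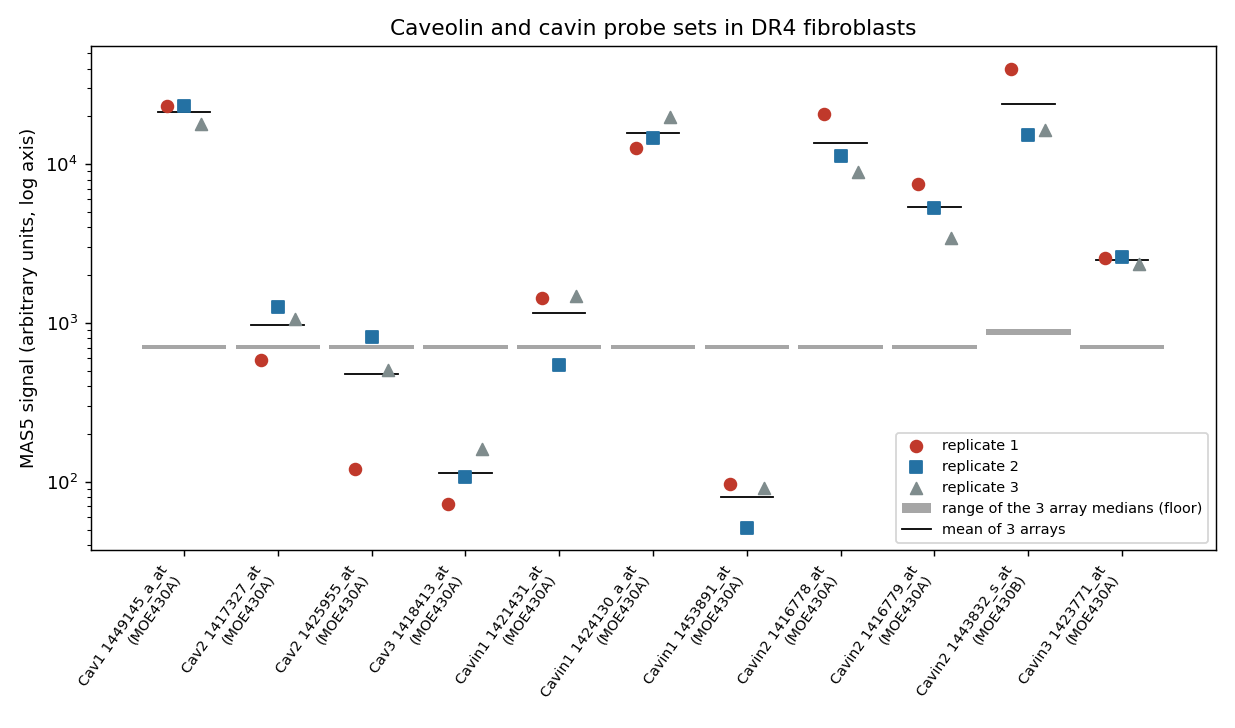
MAS5 signal (arbitrary units, log axis) of each of the 11 caveolin and cavin probe sets, with 1 point per replicate, a black line at the mean of 3 arrays and a grey band over the range of the 3 array medians that served as the floor. Cav1, the brightest Cavin1 probe set, the 3 Cavin2 probe sets and Cavin3 sit above the band on every array, Cav3 and 1 Cavin1 probe set sit under it on every array, and Cav2 straddles it.

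Among the caveolins, Cav1, the main scaffold protein outside muscle, had signals of 23172, 23177 and 17983 in replicates 1, 2 and 3 (21444 ± 2997, SD, n = 3) on its only probe set, 1449145_a_at. Replicates 1 and 2 were alike and replicate 3 was lowest. On each array Cav1 stood near the top, at percentiles 98.6, 98.5 and 98.2 of the MOE430A probe sets, or 33.7, 33.9 and 24.6 times the floor.

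Cav2 encodes the partner that forms mixed oligomers with Cav1 and depends on it to reach the plasma membrane. Its probe set 1417327_at had signals of 584, 1265 and 1067 (972 ± 350.3), at percentiles 45.6, 67.4 and 61.0. Its other probe set, 1425955_at, had 120.4, 812 and 506 (479 ± 346), and only replicate 2 was above the floor. Replicate 2 was highest on both probe sets, which read the same RNA and are not independent, and replicate 1 was under the floor on both. Cav3, the caveolin of skeletal and cardiac muscle, had 72.6, 107 and 160.03 (113 ± 44.1) on 1418413_at, between 0.106 and 0.219 times the floor. Myog, which drives muscle differentiation, had 132, 136 and 263. A signal under the median gives no level for Cav3, and its absence from the cells is not shown.

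Cav2 and Cav1 stand side by side in the same orientation, with no other annotated gene between them in RefSeq's table of assembly GRCm38.p6, and their promoters are shown because these neighbours differed in how they stood against the floor. The lines give the 250 bases before the start listed first for the gene, from RefSeq on build GRCm38.p6, read 5′ to 3′ along the gene's strand. RefSeq lists 2 such windows for Cav1 and 1 for Cav2, and the second of Cav1 was not read. Capitals mark matches on either strand to the TATA box letters TATAAA, the promoter box letters CCAAT, the GC box core letters GGGCGG, the AP-1 element TGACTCA or the CArG box bound by serum response factor, and no matches overlap one another.
Cav2 promoter, chr6:17280935-17281184, plus strand: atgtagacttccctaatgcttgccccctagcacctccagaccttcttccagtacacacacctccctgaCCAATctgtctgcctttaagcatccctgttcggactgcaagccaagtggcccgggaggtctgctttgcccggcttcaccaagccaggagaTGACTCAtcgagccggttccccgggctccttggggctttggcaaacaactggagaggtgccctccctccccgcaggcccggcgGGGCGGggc
Cav1 promoter, chr6:17306085-17306334, plus strand: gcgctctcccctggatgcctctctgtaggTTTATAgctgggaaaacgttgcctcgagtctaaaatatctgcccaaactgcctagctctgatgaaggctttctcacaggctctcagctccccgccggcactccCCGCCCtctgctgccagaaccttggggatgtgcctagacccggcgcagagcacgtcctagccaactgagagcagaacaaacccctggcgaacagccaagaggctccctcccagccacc
Both windows hold GGGCGG once, as do 32.7% of the 32851 RefSeq windows of this length. Cav2 also holds TGACTCA (4.46% of windows) and CCAAT (33.8%), and Cav1 holds TATAAA (12.4%). G and C made 62.0% of the Cav2 window and 59.6% of the Cav1 window, against a median of 52.4% over all windows. A match is only a description of the letters.

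Among the cavins, Cavin1, the core coat protein without which caveolae do not form, had signals of 12608, 14579 and 19950.3 (15713 ± 3800.0) on probe set 1424130_a_at, at percentiles 97.2, 97.7 and 98.4. Replicate 3 was highest there. Its other probe sets read differently. On 1421431_at the signals were 1445, 547 and 1470.4, with replicate 2 alone under the floor, and on 1453891_at they were 97.0, 51.6 and 91.0, all under it. Replicate 2 was thus lowest on 1421431_at and replicate 1 on the bright probe set, and 1453891_at gives no order.

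Cavin2, which binds phosphatidylserine and helps to curve the membrane, had signals of 20724, 11304 and 8871 (13634 ± 6260.4) on probe set 1416778_at and 7467, 5274 and 3427 (5390 ± 2022) on 1416779_at. On MOE430B, 1443832_s_at had 39827, 15365 and 16386 (23859 ± 13838). Replicate 1 was highest on all 3 probe sets. Cavin3, the cavin that binds protein kinase C delta, had 2575, 2591 and 2368 (2511 ± 124) on 1423771_at, at percentiles 82.9, 83.0 and 80.9. Its highest signal was 1.09 times its lowest. Cavin4, the cavin of muscle and no member of the set, had 596, 414 and 134 and was under the floor on all 3 arrays, as Cav3 was.

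The promoters of the bright cavins are shown because Cavin2, and not Cavin1, was highest in replicate 1 on every probe set read. Source, build and capitals are as above. RefSeq lists 2 such windows for Cavin1 and 1 for Cavin2, and the second of Cavin1 was not read.
Cavin1 promoter, chr11:100970618-100970867, minus strand: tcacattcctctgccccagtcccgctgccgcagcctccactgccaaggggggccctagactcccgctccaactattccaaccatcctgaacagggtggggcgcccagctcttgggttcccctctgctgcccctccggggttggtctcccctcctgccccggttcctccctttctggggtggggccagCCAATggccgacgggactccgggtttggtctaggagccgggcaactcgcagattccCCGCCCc
Cavin2 promoter, chr1:51288876-51289125, plus strand: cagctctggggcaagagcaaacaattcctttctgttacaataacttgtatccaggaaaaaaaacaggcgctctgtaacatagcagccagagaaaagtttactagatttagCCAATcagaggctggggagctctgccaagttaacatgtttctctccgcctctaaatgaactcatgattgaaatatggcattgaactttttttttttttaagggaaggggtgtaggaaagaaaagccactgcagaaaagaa
Both windows hold CCAAT once, and Cavin1 alone of these holds GGGCGG. The windows differed in base composition: G and C made 67.6% for Cavin1, above 87.1% of all windows, and 40.4% for Cavin2, above 12.5%. Neither holds a CArG box, which 1.47% of windows hold. Of the 6 members, 5 had a promoter in the table.

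The spread between replicates differed among the members. On the log2(signal + 16) scale the SD over 3 arrays was 0.07 for Cavin3, 0.21 for Cav1 and 0.34 for the bright Cavin1 probe set, against a median of 0.24 over the 9624 MOE430A probe sets above the floor. Cavin2 had 0.63 on 1416778_at and 0.56 on 1416779_at, larger than 96.4% and 94.4% of those probe sets. On MOE430B it had 0.77, larger than 97.4% of 8411, whose median was 0.28. Cavin3 stood at the other end, with an SD larger than that of 6.16% of the probe sets.

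**Figure D2:**
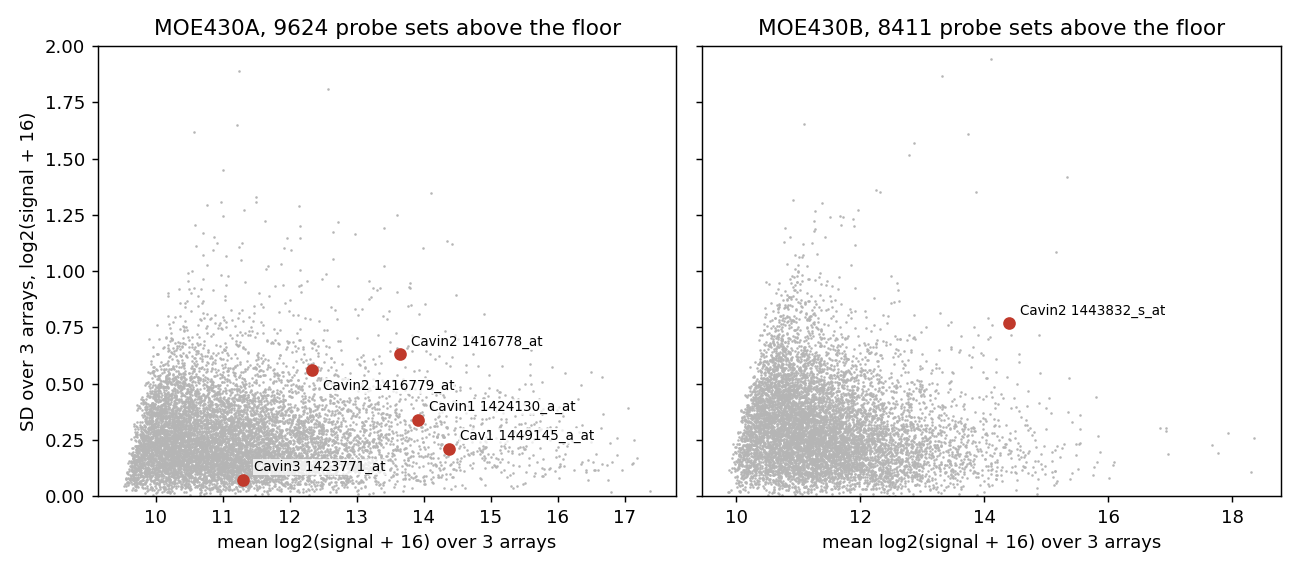
SD over 3 arrays against mean, both of log2(signal + 16), for every probe set above the floor on all 3 arrays of MOE430A (left) and MOE430B (right), with members in red. The 3 Cavin2 points lie at 0.63, 0.56 and 0.77, larger than 96.4%, 94.4% and 97.4% of the points of their array type at any signal. Cavin3 lies near the bottom at 0.07.

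Replicate 1 was set against replicates 2 and 3, the only contrast that the labels draw within an array type. No member passed an adjusted p of 0.05 in limma, 0 of 8 probe sets tested. Of the members above the floor on every array, Cavin2 was farthest from 0, with higher signals in replicate 1; for Cav2, lower in replicate 1 and under the floor there, only a bound can be given. The test took the probe sets with a mean above the floor on the log2 scale, with Benjamini-Hochberg adjustment over all of them. On MOE430A it called 78 of 11086 (0.704%), 24 higher (0.216%) and 54 lower (0.487%) in replicate 1, and on MOE430B 0 of 10615 (0%). At an unadjusted p under 0.05 were 4 of the 8 member probe sets, the 3 of Cavin2 and 1 of Cav2, against 901 on MOE430A (8.13%) and 766 on MOE430B (7.22%). The probe sets of a gene read the same RNA, so this is 2 of 5 genes and no excess is read from it. Only 1 residual degree of freedom remains with 1 array on one side, whose own spread is taken to equal that of the other side. Limma draws each variance toward a value pooled over the tested probe sets. The pooled value weighs as 26.5 degrees of freedom on MOE430A and 3.47 on MOE430B. An SE on MOE430A is therefore mostly pooled and is not the replicate spread of a single probe set.

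Cavin2 was 2.07-fold higher in replicate 1 on 1416778_at, with a log2 difference of 1.05 ± 0.37 (SE) and an adjusted p of 0.291 in limma (unadjusted 0.00866). On 1416779_at it was 1.75-fold higher (0.81 ± 0.38, adjusted p = 0.577, limma), and on MOE430B 2.51-fold (1.33 ± 0.36, adjusted p = 0.576, limma). Of the tested probe sets, 1.14%, 2.71% and 1.68% of the same array type had a larger upward difference. Replicate 1 lay above both other replicates on all 3 probe sets, as it did for 33.2% of tested probe sets on MOE430A and 35.7% on MOE430B. Within 1 scan day and station, that of replicates 1 and 2 on MOE430A, the difference was 0.87 on 1416778_at and 0.50 on 1416779_at. On MOE430B, where replicate 1 alone was of another station, an effect of station cannot be told apart from one of the replicate.

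Cav2 was at least 1.69-fold lower in replicate 1 on 1417327_at, with the floor in place of the replicate 1 signal, since that lay under it. It entered the test through replicates 2 and 3, so its fitted log2 difference of -0.97 ± 0.37 (adjusted p = 0.358, limma) gives no size. Of the MOE430A probe sets tested, 35.6% were lowest in replicate 1, as Cav2 and the bright Cavin1 probe set were. The bound was 1.84-fold against replicate 2 and 1.55-fold against replicate 3. The second Cav2 probe set, Cav3 and the dimmest Cavin1 probe set were too dim to be tested. On Cavin1 1421431_at replicate 2 was under the floor, so the fitted difference there gives no size. Without replicate 2 it was -0.025. The remaining members lay nearer to 0 in the fit. Log2 differences were 0.18 ± 0.37 for Cav1, 0.06 ± 0.37 for Cavin3, -0.44 ± 0.37 for Cavin1 1424130_a_at and 0.67 ± 0.43 for 1421431_at. Their adjusted p-values in limma were between 0.776 and 0.988.

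**Figure D3:**
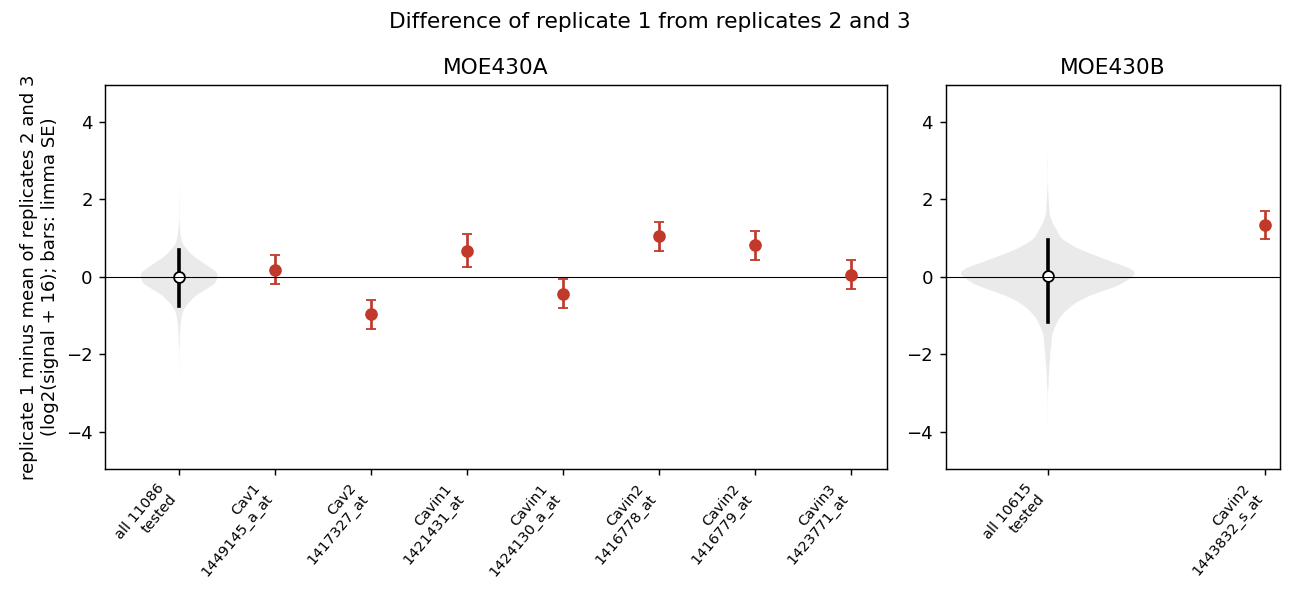
Replicate 1 minus the mean of replicates 2 and 3 on the log2(signal + 16) scale, for the 7 member probe sets tested on MOE430A and the 1 on MOE430B, with limma's SE as bars. The grey shape is the distribution over all probe sets tested, its black bar the 5th to 95th percentile and its circle the median; the 3 Cavin2 points lie at 1.05, 0.81 and 1.33, above the bars, and Cav2, whose replicate 1 signal was under the floor, lies under it at -0.97.

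Contractile genes were highest in replicate 1 alongside Cavin2. Of the 8 smooth muscle and myofibroblast markers in the test, 7 were highest in replicate 1 and lowest in replicate 3, as were both MOE430A probe sets of Cavin2, against 18.6% of all probe sets tested on MOE430A. Their summed signal over the 10 measured genes was 287956, 213720 and 138075 in replicates 1, 2 and 3, and the median log2 difference was 0.83 against -0.01 over all MOE430A probe sets tested. The brightest were the smooth muscle actin gene Acta2 (127380, 101911 and 60312), the actin-binding Tagln (49995, 34298 and 16584) and the caldesmon gene Cald1 (40143, 30138 and 27861). Limma called 1 of them, calponin Cnn1, whose signals were 7562, 2997 and 1381: it was 3.69-fold higher in replicate 1 (adjusted p = 0.0209, limma), and 0.882 with no filter and 0.465 after quantile normalization, where the call was lost. The smooth muscle genes Myh11 and Myocd were under the floor. The fibroblast markers did not share this pattern, with 1 of 15 highest in replicate 1 and lowest in replicate 3 and a median log2 difference of -0.32. The summed signals of the other caveola-rich types were 6785, 6499 and 6410 for skeletal and cardiac muscle, 4942, 5069 and 5306 for endothelium and 4383, 8283 and 5188 for adipocytes, and those of epithelium were 6438, 4944 and 6130. Muscle and epithelium were thus highest in replicate 1 and the other 2 were not, but most markers in these sums were not above the floor, so the sums do not measure those cell types. The ratio of the 3′ to the 5′ signal of Gapdh, a sign of RNA quality, was highest in replicate 1, at 1.27, 1.16 and 0.846 on MOE430A, and likewise on MOE430B (1.32, 1.24 and 0.802). That of beta-actin was instead lowest in replicate 1, at 1.05, 1.17 and 1.09 on MOE430A and 1.02, 1.33 and 1.099 on MOE430B. Gapdh and beta-actin thus placed replicate 1 at opposite ends. On MOE430A, replicate 3 alone was of another scan day and station, so its low place there cannot be told apart from their effect. On MOE430B, where all 3 arrays shared a scan day, Cavin2 was lowest in replicate 2 (15365) and not in replicate 3 (16386). The part of the contractile markers, of scan day and station and of RNA quality in the Cavin2 values was not tested. In bulk RNA, more cells of a type and more RNA per cell cannot be told apart.

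**Figure D4:**
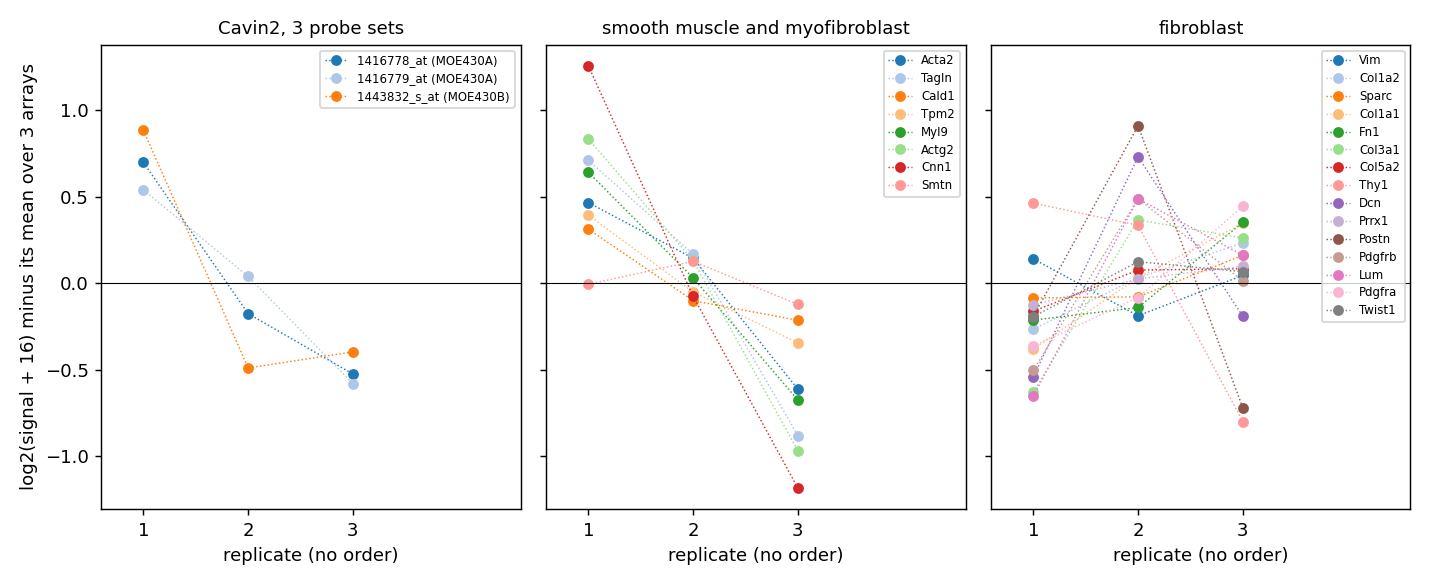
log2(signal + 16) minus its mean over the 3 arrays, by replicate, for the 3 Cavin2 probe sets (left), the 8 smooth muscle and myofibroblast markers above the floor (middle) and the 15 fibroblast markers (right); dotted lines join the points of 1 probe set and imply no order. Cavin2 and 7 of the 8 contractile markers are highest in replicate 1, and most fibroblast markers are not.

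Genes whose pattern over the 3 arrays was nearest to that of Cavin2 were found by the distance between centred log2 values, among probe sets above the floor with a range over 1. With 3 arrays of 1 group, likeness is weak and many genes share it. They were Hdhd2, Spred1 and Sgk1 for 1416778_at (distance 0.0451 to 0.0581, among 643 probe sets), Lasp1, Steap1 and Plk2 for 1416779_at (0.0278 to 0.0470), and Parvb, Hmga2-ps1 and Cd44 for the MOE430B probe set (0.0261 to 0.0669, among 812). No other member had a pattern to match, since none of the others above the floor had a range over 1.

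Of the 65 distinct genes measured in 5 lists around caveolae, 53 were above the floor, against 54.8% of all genes. With other floors it was 44 at the 75th percentile (30.7% of all genes), 51 at the highest tryptophan control (44.0%) and 60 at a fixed signal of 200 (79.7%). Among caveola accessory proteins, 8 of 12 were: the brightest were filamin Flna, which ties Cav1 to actin (17106, 16339 and 15887), Ehd2, the ATPase at the caveolar neck (8743, 7360.0 and 8323), and the dynamin genes Dnm1 (4304, 4953 and 6108) and Dnm2 (3388, 4815 and 5295). The muscle cavin Cavin4 was not among them, nor were Pacsin1, Ehd4 and Ror1. Limma called 0 of these genes in either direction; the nearest was Ehd3, at 821, 2485 and 2147 (log2 difference -1.47 ± 0.37, adjusted p = 0.0555), which is outside the rule for named genes and was chosen after its values were seen. The median log2 difference of the list was 0.10.

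Of 9 genes of the flotillins and their protein family 8 were above the floor, which is not a count of raft proteins. Flot1, at 6226, 6480.2 and 5657, and Flot2, at 6152, 5452 and 5009, encode scaffold proteins of a separate membrane domain. Phb2 had 8053, 8009 and 5730 and, on MOE430B, Erlin2 had 6703, 7851 and 8354. None was called, and the median log2 difference was 0.07. The clathrin-coated pit, the main other route of uptake, had 16 of 17 above the floor, with Cltc at 14397 ± 874, Ap2m1 at 10906 ± 759, Clta at 9882 ± 1147 and Ap2a2 at 7998 ± 803, no calls, and a median of -0.09.

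Receptors and kinases linked to caveolae were above the floor in 10 of 15 cases, led by the integrin Itgb1 (18334, 14415 and 16096), Tgfbr2 (10582, 15589 and 20405), Egfr (4903, 7384 and 5917) and Pdgfrb (3688, 7347 and 5285). The endothelial nitric oxide synthase Nos3 and the fatty acid receptor Cd36, both caveolar in other cells, were not. Limma called 1 gene of this list lower in replicate 1, the glucose transporter gene Slc2a4 (325, 1244 and 887, adjusted p = 0.0281, limma), and 0 higher, where 0.487% of all MOE430A probe sets tested were called lower. Its replicate 1 signal was under the floor and it entered the test through replicates 2 and 3, so only a bound of at least 1.53-fold lower is given, from 1 array on that side. Against replicate 2 alone the bound was 1.81-fold and against replicate 3 alone 1.29-fold. Its call was lost with no filter (adjusted p = 0.783), after quantile normalization (0.413) and with an eBayes trend (0.076). The list's median log2 difference was -0.41.

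Genes that supply cholesterol, the lipid that caveolae need, were above the floor in 11 of 12 cases, with Npc2 at 22360.2, 40080.0 and 35578, Lrp1 at 5761, 8882 and 13259, Hmgcs1 at 5451, 10295 and 5385 and Scap at 3523, 4631 and 3623. None was called. Their median log2 difference was -0.27, and 1 of the 12 tested was highest in replicate 1.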

How the data were processed

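RNA of DR4 fibroblasts was measured on Affymetrix MOE430A and MOE430B arrays, 3 replicates each. The authors deposited 1 column of signal intensity per array on a linear scale, made with MAS5 per the submitters' processing notes; for its version, background step and target, nothing is stated in what was read here. The mean signal without the top and bottom 2% of probe sets was 1499.9 on each MOE430A array and 1499.8 on each MOE430B array, so the arrays of a type share a scale. Instrument records gave only scan day and station. Detection calls and probe sequences were not used here.

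Symbols were those of the GEO platform annotation, an old source, updated by identifier against RefSeq (20351 of 20380 and 14486 of 14661 single-symbol probe sets matched). The 64 control probe sets of each type were left out. The contrast of replicate 1 with replicates 2 and 3 was fitted within each type with limma 3.58.1 (R 4.3.3, lmFit and eBayes). It used log2(signal + 16), which understates the change of dim genes. The fit was also run on arrays simulated from its own variance model, without effects of scan day, station or RNA quality. That run checks the code and not the calls made here. A lower bound puts the floor in place of a signal under it, on the log2 signal scale. For a listed gene the brightest MOE430A probe set was read, and MOE430B only for genes missing from MOE430A. Named are all members; per pathway list the 4 brightest genes above the floor and those called; per marker list the 3 brightest. Other markers named were chosen after their values were seen. List members with no probe set named here (Pacsin2, Picalm and others) are left out. The members and lists were chosen with earlier results of these data known. The number of arrays limits the precision. Alternatives covered the floor, pseudocount, filter, normalization, variance trend and each replicate left out.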

Additional observations from a re-analysis of the deposited data

How the results depend on the processing

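No paired analysis was possible because the replicate numbers link only the array types, which were never compared. The count of members above the floor was 4 of 6 with the 75th percentile (30.7% of all genes), the highest tryptophan control (44.0%) or only the brightest probe set. It was 5 with a fixed signal of 200 (79.7% of all genes) or, added after the data were seen, of 100 (88.3%). At these fixed floors most genes of the arrays pass as well. Leaving out a replicate gave 4 to 5, against 57.6% to 58.4% of all genes. The limma calls over all MOE430A probe sets went from 78 to 0 with no filter and 0 after quantile normalization (1297 and 751 at an unadjusted p under 0.05), and to 167 with an eBayes trend. No member probe set was called under any of these settings; the lowest adjusted p was 0.1001, for Cavin2 1416778_at with the trend, and it was 0.233 to 0.942 under the others. Of 59 recomputed member differences 56 kept their direction, but this count does not measure robustness. The filter and the eBayes trend cannot change a difference, and the pseudocount moved them little. The other 3 turned sign with a replicate left out. They ranged from -0.000292 to 0.365 for Cav1, -0.0091 to 0.12 for Cavin3 and -0.025 to 1.37 for Cavin1 1421431_at. The negative values came without replicate 3 for Cav1 and Cavin3 and without replicate 2 for Cavin1, where the replicate 1 signal nearly equalled the one it was set against. The median SD of the 5 MOE430A member probe sets above the floor, 0.34, was 0.15 without replicate 3 and 0.47 without replicate 2. The cause of these shifts was not tested.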
